A study of Mus musculus with 24 samples.

Results

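Collagen genes were taken from the expression table of mouse liver by symbol: every gene named Col, a number, a and a second number. This gave 44 chains of the 55536 genes in the table, and 12 of the 44 had a mean of at least 1 TPM (a share of a library's transcripts, scaled for gene length and to 1000000 per library) over all 24 libraries. The libraries came from the liver of 6-week-old wild type Balb/c mice in 3 groups of 8, labelled by disease state: healthy controls (Con), acute pancreatitis (AP) and severe acute pancreatitis (SAP). The means of inducing pancreatitis and the time of sampling are not stated in these sources. Whether each library is a separate mouse is not stated either, so p-values reflect library-to-library spread, which may be technical in part. Libraries are named below by group and the number in their label.

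Collagens are made of chains that wind in threes into a triple helix. Fibrillar collagens (types I, III, V and XXVII among others) form the cables of interstitial matrix, type IV collagen forms the sheet of basement membranes, type VI collagen forms beaded filaments, and types XV and XVIII are multiplexins at the border of the basement membrane. In liver, stellate cells and portal fibroblasts are the textbook sources of fibrillar collagen, while endothelial and stellate cells make type IV chains that lie in the space beside the sinusoids.

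Promoter windows from RefSeq (build GRCm38.p6, the C57BL/6J reference, whereas these mice were Balb/c) were found for 35 of the 44 chains, in 38 windows of 300 bases. Which build the authors used is not stated in these sources. Sequences are shown for the 4 chains, of the 12 with a mean of at least 1 TPM, whose SAP values lay outside every control value: Col4a1 and Col4a2, because they start head to head, and Col13a1 and Col27a1, because they went opposite ways. The first exons of Col4a1 and Col4a2 share 22 bases on opposite strands, at chr8:11312805-11312826, written here on the minus strand, 5′ to 3′. The stretch before the start of Col13a1 is chr10:61979109-61979358 on the minus strand, and that before the start of Col27a1 is chr4:63215162-63215411 on the plus strand. Capitals mark a CCAAT box (CCAAT), a GC box (GGGCGG) or a TATA box (TATAAA), each searched on both strands.
Col4a1 and Col4a2, shared bases: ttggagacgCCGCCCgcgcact
Col13a1: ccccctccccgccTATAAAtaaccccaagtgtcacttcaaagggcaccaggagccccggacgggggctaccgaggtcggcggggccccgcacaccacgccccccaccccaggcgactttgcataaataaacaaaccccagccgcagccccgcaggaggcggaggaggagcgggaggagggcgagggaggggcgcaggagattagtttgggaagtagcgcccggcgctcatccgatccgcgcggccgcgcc
Col27a1: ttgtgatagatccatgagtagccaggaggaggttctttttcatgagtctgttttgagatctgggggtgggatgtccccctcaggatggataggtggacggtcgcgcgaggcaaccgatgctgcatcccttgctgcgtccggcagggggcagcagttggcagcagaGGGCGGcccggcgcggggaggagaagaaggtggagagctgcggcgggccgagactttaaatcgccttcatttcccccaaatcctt

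A GC box lies in the bases that both type IV first exons hold. Over the whole 300-base windows (positions counted from 1, with 250 bases before the start), Col4a1 held a CCAAT box at bases 106 to 110 and a GC box at 260 to 265. Col4a2 held a CCAAT box at bases 219 to 223, GC boxes at 59 to 64, 203 to 208 and 258 to 263, and an NF-kB motif at 211 to 220 that overlaps its CCAAT box. The GC box at 258 to 263 is the same site as that at 260 to 265 of Col4a1, because the windows overlap. The Col13a1 window held TATAAA at bases 14 to 19 and neither of the other boxes. Col27a1 held GC boxes at bases 166 to 171 and 294 to 299, and an NF-kB motif at 68 to 77. None of the 4 windows held the AP-1 motif TGANTCA. Among 32851 RefSeq windows of the same length, 37.4% held CCAAT, 35.7% GGGCGG, 13.6% TATAAA, 7.81% TGANTCA and 8.46% the NF-kB motif, so a match only describes these letters.

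The 24 libraries summed to between 986423 and 993642 TPM and listed between 17140 and 18565 genes above 0. TPM values carry no read depth, so no counting interval can be given. Across genes, pairs of a Con and an AP library had a Pearson r of log2(TPM + 1) of 0.915 to 0.967, and pairs of a Con and a SAP library one of 0.711 to 0.836. The summed level of 9 hepatocyte markers was 43700 to 53600 TPM in Con, 40700 to 55500 in AP and 38700 to 52300 in SAP. SAP 28 stood apart from the other SAP libraries for several stromal genes, and the SAP libraries numbered 21 to 25 (21, 22, 24 and 25) differed from those numbered 26 to 29 (26, 27, 28 and 29) for several chains; both are given beside the results they touch. The labels do not say what the numbers stand for.

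Collagen transcripts summed to 66.57 to 123.6 TPM in Con, 74.8 to 126.2 in AP and 98.42 to 203.0 in SAP. This was at most 0.0204% of the transcripts of any library. The SAP range overlapped both others. Without Col18a1 the sum was 28.84 to 53.35 TPM in Con, 27.28 to 49.68 in AP and 56.07 to 139.3 in SAP, and no SAP library then fell within the range of another group. The make-up of the sum differed: type IV chains had a mean share of 7.83% of collagen TPM in Con, 7.83% in AP and 41.8% in SAP. Fibrillar chains had 20.6%, 18.2% and 6.31%, and multiplexins 61.0%, 65.0% and 41.3%. The sums are descriptions with no test.

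**Figure D1:**
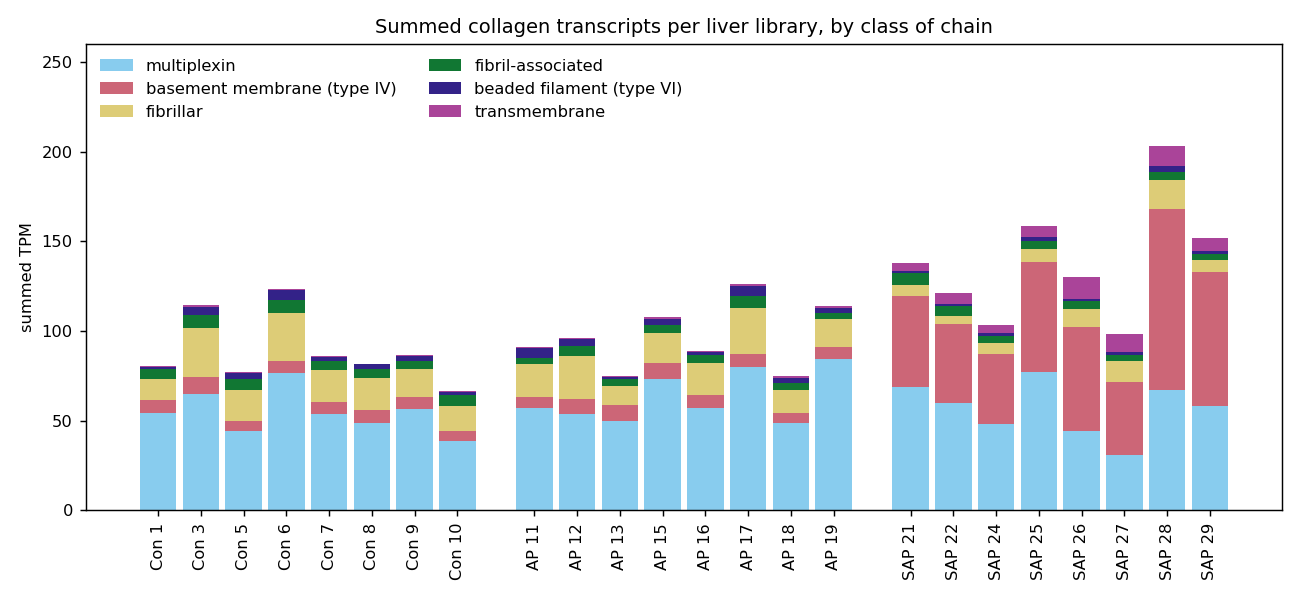
Summed TPM of collagen transcripts (vertical axis) in each of the 24 liver libraries (horizontal axis), stacked by class of chain; the network and anchoring class and the class of other collagens, at most 0.69 TPM in any library, are not drawn. The type IV segment is 5.27 to 9.39 TPM in Con and AP libraries and 39.29 to 100.8 TPM in SAP libraries, while the multiplexin segment overlaps between the groups.

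Of the 44 chains, 12 entered the test and 32 did not, of which 4 (Col19a1, Col2a1, Col4a6 and Col9a1) were listed at 0 in every library. The test was limma on log2(TPM + 1) over 10555 genes, with Benjamini-Hochberg adjustment and a threshold of 0.05. Log2 changes are on that scale and understate the change of low chains. Col13a1 reached the mean of 1 TPM only through the SAP libraries, and Col27a1, Col6a1, Col1a1 and Col16a1 had SAP means under 1 TPM and reached it only through the other groups, so the filter favours differences among these 5. Counts over the 12 describe them and do not speak for all 44.

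SAP against Con asks how liver transcripts differ between severe pancreatitis and health. Of the 12 tested chains, 3 were higher (Col4a1, Col4a2 and Col13a1), 5 were lower (Col27a1, Col3a1, Col1a1, Col6a1 and Col16a1) and 4 were not called. Over all genes tested, 44.2% were higher and 29.8% lower; being called is thus common among genes in this comparison. The median log2 change was -0.32 over the 12 chains and 0.21 over all genes tested. In bulk tissue, more or fewer cells of a type and more or less RNA per cell cannot be told apart, for these and all later results.

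Against AP the SAP livers showed the same 3 chains higher, with 41% of all genes tested higher too. There, 4 chains were lower (Col27a1, Col3a1, Col6a1 and Col15a1), beside 31% of all genes, and 5 were not called. The median log2 change was -0.19 over the chains and 0.13 over all genes. Both SAP comparisons use the same SAP libraries, so they are not independent.

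AP against Con called 0 chains higher and 0 lower of the 12 by limma, where 4.35% of all genes were higher and 1.13% lower. No chain had AP libraries all above or all below Con, which 0.644% and 0.104% of all genes had. At an unadjusted p under 0.05 the count was also 0, as it was by an exact permutation test with the same adjustment and, over 40 chains, by limma without a filter, which called 0.593% of genes higher and 0.23% lower. The median log2 change was 0.03 over the chains and 0.06 over all genes. Missing the threshold does not show that AP and Con chains were alike.

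**Figure D2:**
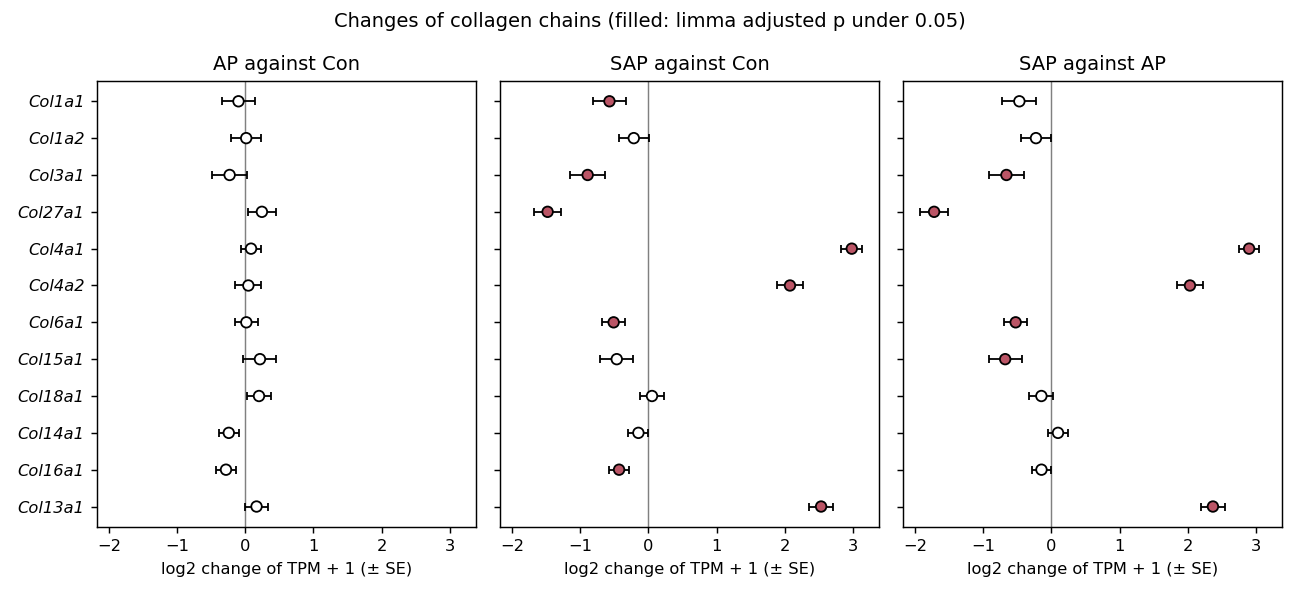
Log2 change of TPM + 1 with its SE (horizontal axis) for the 12 tested collagen chains (vertical axis) in the 3 comparisons; filled points passed an adjusted p of 0.05 by limma. No point is filled in AP against Con, and Col4a1, Col4a2 and Col13a1 lie at 2.03 or more in both SAP comparisons.

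Type IV chains form the basement membrane network, and the Col4a1 and Col4a2 chains build its most widespread form. Col4a1 was at a lowest, median and highest value of 3.84, 4.61 and 6.92 TPM in Con, 3.93, 5.03 and 6.31 in AP, and 30.85, 42.23 and 75.84 in SAP. Every SAP library was above every Con and AP library, while Con and AP overlapped over most of their range. The log2 change was 2.98 against Con (SE 0.15, limma adjusted p = 9.138e-15, higher in 8 of 8 SAP libraries) and 2.90 against AP (adjusted p = 1.795e-14). Against Con, the ratio of mean TPM was 9.63.

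Col4a2 was at 1.51, 1.825 and 2.38 TPM in Con, 1.21, 1.955 and 2.87 in AP, and 6.52, 10.46 and 24.67 in SAP. Again no SAP library overlapped either other group. Its log2 change was 2.08 against Con (SE 0.19, limma adjusted p = 5.545e-10) and 2.03 against AP (adjusted p = 9.451e-10). The ratio of Col4a1 to Col4a2 TPM within a library was 1.61 to 3.05 in Con, 1.84 to 3.25 in AP and 2.72 to 5.53 in SAP, with medians of 2.66, 2.66 and 4.19. These ratio ranges overlapped, and they were not tested. Every SAP library numbered 21 to 25 had a higher ratio than every one numbered 26 to 29. The SAP median thus lies between the levels of these sets. SAP 28 had the highest level of both chains. Without it the log2 changes against Con were 2.88 and 1.93, both past the threshold. Col4a2 had a mean of 8.115 TPM in the SAP libraries numbered 21 to 25 and of 16.5 in those numbered 26 to 29. Its log2 change against Con was 2.53 without the first set and 1.63 without the second, both past the threshold.

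The other type IV chains were scarce. Col4a5 had a mean of 0.155 TPM over all libraries, Col4a4 one of 0.0154 and Col4a3 one of 0.0108, while Col4a6 was listed at 0 throughout. Col4a5 and Col4a6 also start near each other, 1343 bases apart in RefSeq. Col4a1 and Col4a2 shared 22 bases of exon, 0.295% and 0.332% of their exon bases in GENCODE M21, so reads of either strand in that overlap are a small part of each chain.

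Col13a1 encodes a transmembrane collagen found at cell contacts. In Con its lowest, median and highest values were 0.24, 0.375 and 0.8 TPM, in AP 0.25, 0.635 and 1.24, and in SAP 4.58, 6.92 and 12.12. All SAP libraries were above all others, and 4 of 8 AP libraries were above every Con library. The log2 change was 2.54 against Con (SE 0.17, limma adjusted p = 2.752e-12) and 2.37 against AP (adjusted p = 1.061e-11). For AP against Con it was 0.16 (adjusted p = 0.6601). Within SAP the chain was at 4.58 to 6.31 TPM in the libraries numbered 21 to 25 and at 7.53 to 12.12 in those numbered 26 to 29, ranges that do not overlap, and both lay above every Con library. The other 3 transmembrane chains (Col17a1, Col23a1 and Col25a1) had means of at most 0.0392 TPM.

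Col27a1, a fibrillar chain known from cartilage, went the other way. It was at 2.46, 3.925 and 5.43 TPM in Con, at 2.23, 4.425 and 9.66 in AP, and at 0.3, 0.68 and 1.06 in SAP. Every SAP library was below every Con and AP library. The log2 change was -1.48 against Con (SE 0.20, limma adjusted p = 3.485e-07, lower in 8 of 8 SAP libraries) and -1.72 against AP (adjusted p = 3.299e-08). It was the 1 chain below every control among the 12, where 14.6% of all genes tested had SAP libraries all below Con, and 23.2% had them all above; 3 chains were all above. Against AP the counts were also 1 chain below and 3 above, beside 15.2% and 22% of all genes.

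Col3a1, the type III chain and the most abundant of the other fibrillar chains here, was at 3.33, 6.425 and 10.84 TPM in Con, 3.23, 5.605 and 10.77 in AP, and 1.5, 2.92 and 6.37 in SAP. The groups overlapped, with 5 of 8 SAP libraries below every Con library. The log2 change was -0.89 against Con (SE 0.26, limma adjusted p = 0.003385) and -0.66 against AP (adjusted p = 0.02537). SAP libraries numbered 21 to 25 were at 1.5 to 2.94 TPM and those numbered 26 to 29 at 2.9 to 6.37. Without the first set the change against Con was -0.38 (adjusted p = 0.2199) and that against AP -0.15 (adjusted p = 0.6337), and neither was called. The call against AP was also lost without AP 12 (adjusted p = 0.06359), SAP 21 (0.05274), SAP 22 (0.05955) or SAP 24 (0.05937), by the exact permutation test (0.05893) and without a filter (0.05354).

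Col1a1 and Col1a2 build type I collagen, the main collagen of scar. Col1a1 was at 0.76, 1.45 and 6.28 TPM in Con, 0.68, 1.635 and 2.72 in AP, and 0.35, 0.78 and 2.71 in SAP. The highest Con value was that of Con 3 and the highest SAP value that of SAP 28, and the groups overlapped. Its log2 change against Con was -0.57 (SE 0.25, limma adjusted p = 0.04088). The call was lost in 13 of 37 alternatives, among them leaving out Con 3 (adjusted p = 0.1113), Con 6 (0.07859), SAP 22 (0.0799), SAP 24 (0.05222), SAP 25 (0.06797), SAP 26 (0.05686), SAP 27 (0.05835) or SAP 29 (0.06423) alone. Against AP it was not called (-0.47, adjusted p = 0.0911), but it was without SAP 28 (-0.61, adjusted p = 0.02506) or Con 3 (adjusted p = 0.04083).

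Col1a2 was at 1.22, 2.65 and 4.71 TPM in Con, 1.19, 2.88 and 4.52 in AP, and 1.14, 2.075 and 5.15 in SAP. The groups overlapped fully, and SAP 28 was the highest of all libraries. The log2 change against Con was -0.21 (SE 0.22, limma adjusted p = 0.3886). The ratio of Col1a1 to Col1a2 TPM had medians of 0.601 in Con, 0.597 in AP and 0.343 in SAP, over ranges of 0.451 to 1.34, 0.36 to 0.664 and 0.304 to 0.53, which overlapped and were not tested.

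Type V chains sit inside type I fibrils. None of the 3 reached a mean of 1 TPM, so they were tested only in the fit without a filter, in which 24.9% of genes were higher and 16.3% lower in SAP than in Con. Col5a3 was at 0.37, 1.31 and 2.85 TPM in Con, had a mean of 0.735 in AP, and was at 0.08, 0.14 and 0.3 in SAP. Its SAP libraries were all below every Con and AP library (log2 change against Con -0.95, SE 0.17, adjusted p = 6.817e-05; against AP -0.58, adjusted p = 0.009331). Against AP the fit without a filter called 3 of 40 chains higher and 6 lower, beside 23.7% and 15% of genes, and against Con 4 higher and 7 lower. Col5a1 had means of 0.818, 0.776 and 0.386 TPM in Con, AP and SAP, with 7 of 8 SAP libraries below every Con library (log2 change -0.39, adjusted p = 0.004287). Col5a2 had a mean of 0.262 TPM over all libraries. Of the remaining fibrillar chains, Col11a2 had a mean of 0.203 TPM, Col24a1 and Col11a1 were at 0.0125 or less, and Col2a1 was listed at 0. As a class, fibrillar chains summed to 12.17 to 27.46 TPM in Con, 10.93 to 25.63 in AP and 4.64 to 16.14 in SAP.

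Col6a1 and Col6a2 pair with Col6a3 in type VI collagen. Col6a1 was at 0.83, 1.395 and 2.6 TPM in Con, 0.68, 1.57 and 2.46 in AP, and 0.45, 0.645 and 1.7 in SAP. Here 7 of 8 SAP libraries were below every Con library and SAP 28 was not. The log2 change was -0.51 against Con (SE 0.17, limma adjusted p = 0.00765) and -0.53 against AP (adjusted p = 0.006502). Without the SAP libraries numbered 21 to 25, which leaves 4 with SAP 28 among them, the change against Con was -0.47 (adjusted p = 0.05502). Col6a2, under the filter, had means of 0.994, 1.17 and 0.416 TPM (log2 change against Con in the fit without a filter -0.46, adjusted p = 0.04084). Col6a3 had means of 0.441, 0.646 and 0.285 TPM and was not called there (adjusted p = 0.4208). The other type VI chains had means of at most 0.0833 TPM.

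SAP 28 held a set of high values that the other 7 SAP libraries did not. Col1a1 was at 2.71 TPM there against 0.35 to 1.01 in the others, Col1a2 at 5.15 against 1.14 to 2.5, Col6a1 at 1.7 against 0.45 to 0.81, and Col6a2 at 1.04 against 0.21 to 0.39. Genes of fat and smooth muscle were above the other SAP libraries there too. Cfd, an adipocyte marker, was at 74.8 TPM against at most 2.41. Myl9, a smooth muscle myosin light chain, was at 4.05 TPM against at most 1.09. Cfd reached at most 0.12 TPM in Con and 2.84 in AP. Myl9 reached 12.21 TPM in Con and 10.46 in AP, so its SAP 28 value is high only among SAP libraries. The SAP 28 values of Col1a1, Col6a1 and Col6a2 lay within the Con and AP ranges, and that of Col1a2 above both. The part of fat or smooth muscle tissue in the collagen values of SAP 28 was not tested. Without SAP 28 the log2 change of Col6a1 against Con was -0.60 and that of Col1a1 -0.71.

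Multiplexins carry most collagen transcripts of healthy liver in this table. Col18a1, the source of endostatin, is made by hepatocytes in liver, and was at 37.73, 50.56 and 73.0 TPM in Con, 46.14, 53.8 and 79.5 in AP, and 27.79, 57.5 and 75.92 in SAP. The groups overlapped fully. Its log2 change was 0.05 against Con (SE 0.17, limma adjusted p = 0.7939), -0.15 against AP (adjusted p = 0.4568), and 0.20 for AP against Con (adjusted p = 0.5706). RefSeq gives it 2 start windows, and the table does not separate transcripts by start.

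Col15a1, the other multiplexin, was at 0.72, 3.215 and 4.29 TPM in Con, 2.48, 3.105 and 5.05 in AP, and 0.39, 1.83 and 3.28 in SAP. The SAP libraries fell in separate ranges, 0.39 to 1.05 TPM in those numbered 21 to 25 and 2.61 to 3.28 in those numbered 26 to 29, and the second range lies inside that of Con. The log2 change was -0.46 against Con (SE 0.24, limma adjusted p = 0.08649) and -0.68 against AP (adjusted p = 0.01491). Without libraries 21 to 25 the changes were 0.08 and -0.13 (adjusted p = 0.7597 and 0.6384). Without libraries 26 to 29 the change against Con was -1.01 (adjusted p = 0.000997). The call against Con was also gained without Con 5 (adjusted p = 0.04143), Con 10 (0.0167) or SAP 28 (0.04104).

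Fibril-associated chains sit on the surface of fibrils. Col14a1, or undulin, was at 1.96, 3.0 and 3.5 TPM in Con, 1.0, 2.165 and 3.57 in AP, and 1.86, 2.24 and 3.19 in SAP, and the groups overlapped (log2 change of SAP against Con -0.15, SE 0.15, limma adjusted p = 0.3686). Within SAP it was at 2.33 to 3.19 TPM in the libraries numbered 21 to 25 and at 1.86 to 2.15 in the others. Col16a1 was at 0.98, 1.28 and 2.21 TPM in Con, 0.58, 1.025 and 1.7 in AP, and 0.33, 0.81 and 1.78 in SAP. In 7 of 8 SAP libraries it was below every Con library, and SAP 21 was the exception. The log2 change of Col16a1 was -0.43 against Con (SE 0.14, adjusted p = 0.009826), -0.29 without the SAP libraries numbered 26 to 29 (adjusted p = 0.1362), and -0.15 against AP (adjusted p = 0.3708).

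Col20a1 had means of 1.02, 0.708 and 0.938 TPM in Con, AP and SAP, just under the filter over all libraries, and was not called without it (adjusted p against Con = 0.7996). Around the filter, Col16a1 (mean over all libraries 1.16 TPM) and Col6a1 (1.28) lay just inside it and Col20a1 (0.889) and Col6a2 (0.858) just outside. Col9a2 was listed at 0 in all 8 Con libraries and was above 0 in 3 AP and 5 SAP libraries at up to 0.23 TPM; the fit without a filter called it higher (adjusted p = 0.03707), at a level too low to read as a change. Network and anchoring chains (Col7a1, Col8a1, Col8a2 and Col10a1) summed to at most 0.69 TPM in any library.

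**Figure D3:**
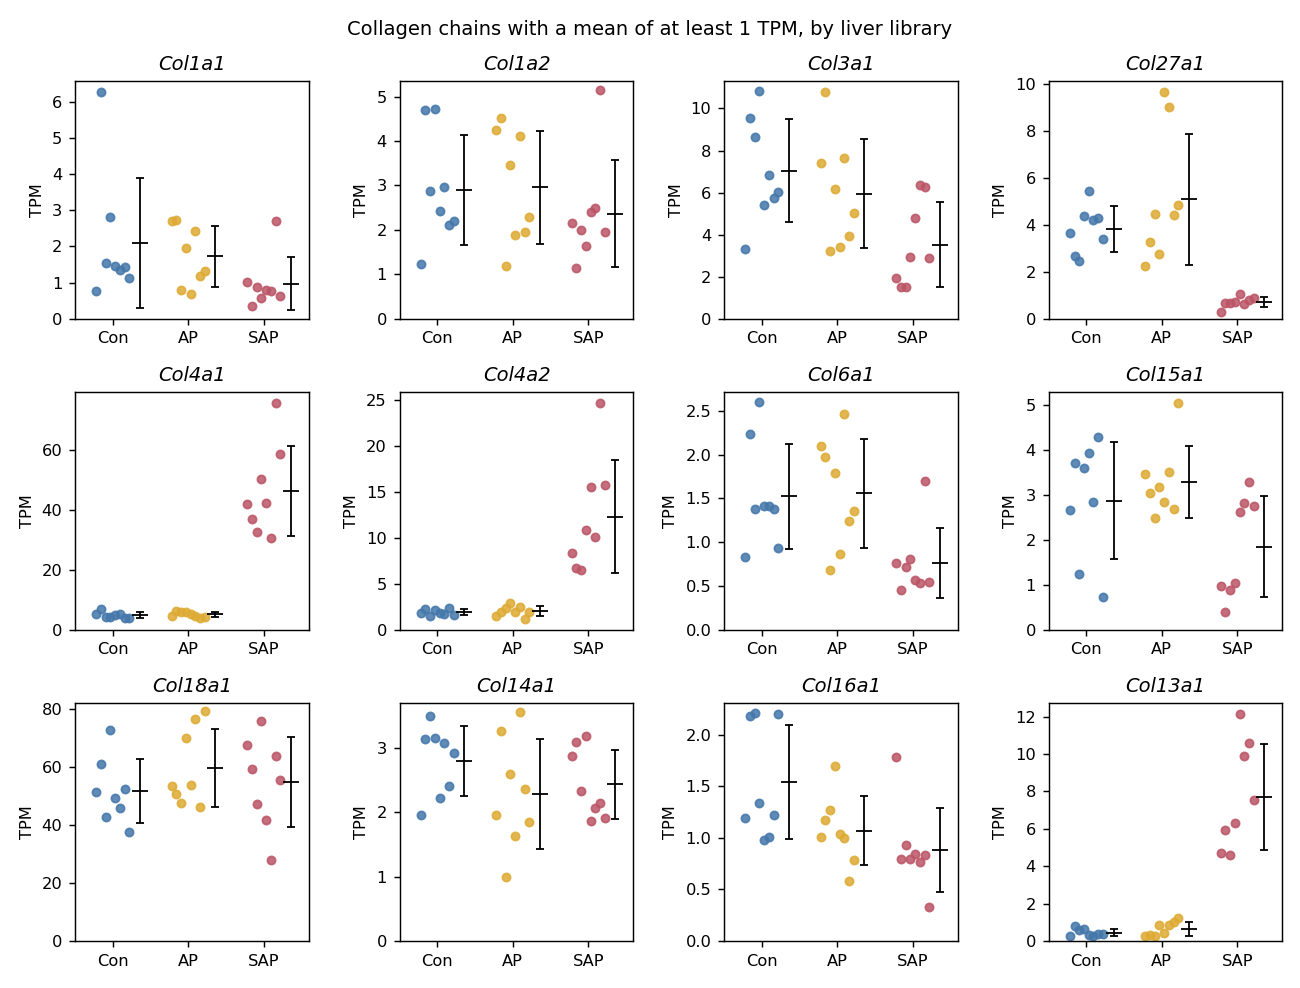
TPM (vertical axes, each from 0) of the 12 collagen chains with a mean of at least 1 TPM in the Con, AP and SAP libraries (horizontal axes), 8 points a group, with the mean and SD in black beside them. SAP points of Col4a1, Col4a2 and Col13a1 all lie above the other groups and those of Col27a1 below, while Col18a1, Col1a2 and Col14a1 overlap.

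Genes that fold, process, bind and break down collagen were read from 7 lists in the same fit. In the endoplasmic reticulum, 15 of 22 folding and modifying genes were tested, and against Con 10 were higher, 4 lower and 1 was not called in SAP, with a median log2 change of 0.49. Over all genes tested, 44.2% were higher and 29.8% lower, with a median of 0.21, and the counts and medians of the lists that follow are to be read beside these. Of the 3 genes with the smallest limma p per list, Creb3l1, Nid1, Smad2, Ccn2, Timp3 and Mmp2 had Con and AP means under 1 TPM. They passed the filter only through SAP. The filter thus favours higher genes in the counts and medians of their lists. The other genes of the lists were not checked for this. P3h1, a prolyl 3-hydroxylase, had a median of 4.275 TPM in Con, 4.43 in AP and 14.19 in SAP (log2 change against Con 1.52, SE 0.19, limma adjusted p = 1.131e-07). Plod3, a lysyl hydroxylase, had medians of 8.465, 9.22 and 17.05 TPM (0.97, adjusted p = 3.973e-07). Creb3l1, a transcription factor for secretory cargo, had medians of 0.4, 0.31 and 2.515 TPM (1.26, adjusted p = 3.415e-09). The 4 lower genes were P4ha1, Crtap, Plod1 and Serpinh1; Serpinh1 encodes the collagen chaperone HSP47 and had a log2 change of -1.36 (adjusted p = 1.733e-06), and Crtap, the partner of P3h1, one of -1.18 (adjusted p = 2.943e-06). Without the SAP libraries numbered 26 to 29, 3 genes of the list were higher, beside 3678 of 10281 genes tested. In AP against Con, P4hb and Ppib were higher and 0 lower, beside 4.35% and 1.13% of all genes tested. This count of 2 ranged from 0 to 5 over the alternatives. It fell to 0 without Con 1, Con 7, Con 10 or AP 15, where calls over all genes fell from 578 to 209, 179, 225 and 184.

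Of 13 genes that process and cross-link procollagen, 2 were tested. Pcolce, an enhancer of the proteinase that trims procollagen, was at 10.46, 11.93 and 14.68 TPM in Con, 3.43, 7.7 and 10.99 in AP, and 1.18, 2.14 and 2.62 in SAP. All SAP libraries were below all AP libraries, and Con and AP overlapped in part. It was lower in SAP than in Con (log2 change -2.09, SE 0.15, limma adjusted p = 3.031e-12) and lower in AP than in Con (-0.64, adjusted p = 0.01405). Bmp1, that proteinase, had medians of 10.16, 12.24 and 11.53 TPM and was not called in SAP against Con (0.10, adjusted p = 0.5322).

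Of 11 collagen receptors, 3 were tested. Itgb1, the integrin beta chain that collagen-binding integrins share, had medians of 12.71, 13.14 and 18.23 TPM and was higher in SAP than in Con (log2 change 0.65, SE 0.14, limma adjusted p = 0.0002009). Itga1 and Itga2, its alpha partners for collagen, were not called against Con (adjusted p = 0.1265 and 0.1188), although Itga1 passed without SAP 21 (0.04907) and Itga2 without SAP 25 (0.02959). Without the SAP libraries numbered 21 to 25, the log2 change of Itga2 against Con was 1.31 in place of 0.51 (limma adjusted p = 4.866e-05).

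Among 17 partners of the basement membrane, 8 were tested, of which 3 were higher (Lama5, Lamc1 and Nid1), 1 lower (Agrn) and 4 not called in SAP against Con, beside 44.2% and 29.8% of all genes tested. Nid1, the nidogen that links laminin to type IV collagen, was at 0.34, 0.47 and 1.02 TPM in Con, 0.24, 0.6 and 0.89 in AP, and 2.59, 7.185 and 12.37 in SAP. No SAP library overlapped the others (log2 change against Con 2.33, SE 0.18, limma adjusted p = 1.536e-11). Lamc1, the laminin gamma chain, had medians of 4.255, 4.165 and 6.69 TPM (0.51, adjusted p = 0.001162). Agrn, a heparan sulfate proteoglycan of the same sheet, had medians of 9.415, 10.15 and 4.265 TPM (-1.16, adjusted p = 1.243e-05). The median log2 change of the list was 0.12, under that of all genes. Nid1 entered the test only through its SAP libraries.

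Of 18 other interstitial matrix genes, 8 were tested, with 5 higher (Fn1, Vtn, Dcn, Bgn and Postn), 1 lower (Ecm1) and 2 not called in SAP against Con, beside 44.2% and 29.8% of all genes tested. After centring each library on its median, which moves the median of all genes from 0.21 to -0.06, the counts were 3 higher and 3 lower. With that centring, 3888 of all 10555 genes tested were higher and 4300 lower. Fn1, fibronectin, which hepatocytes also secrete into plasma, had medians of 69.49, 107.2 and 440.8 TPM (6.08-fold higher than Con on the TPM + 1 scale, limma adjusted p = 9.748e-12). Dcn, a proteoglycan that binds collagen fibrils, had medians of 21.15, 21.83 and 77.55 TPM (1.75, adjusted p = 2.956e-08). Ecm1 had medians of 168.9, 100.1 and 81.98 TPM and was lower in SAP (-1.01, adjusted p = 7.317e-06) and in AP (-0.84, adjusted p = 0.007058) than in Con.

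Transforming growth factor beta is the textbook inducer of fibrillar collagen. Of 21 genes of its signalling, 8 were tested, and in SAP against Con 5 were higher (Tgfbr1, Smad2, Smad4, Ccn2 and Ltbp4), 0 were lower and 3 were not called, beside 44.2% and 29.8% of all genes tested. The median log2 change was 0.87, against 0.21 over all genes. Smad2 and Ccn2 entered the test only through their SAP libraries, which favours higher genes in this count and median. Ccn2, a matricellular protein and a target of the pathway, was at 0.14, 0.31 and 0.87 TPM in Con, 0.17, 0.345 and 0.69 in AP, and 0.4, 1.895 and 5.64 in SAP, and the groups overlapped (1.11, SE 0.22, limma adjusted p = 6.955e-05). Smad2 and Smad4, which carry the signal to the nucleus, had log2 changes of 1.64 and 1.37 (adjusted p = 6.563e-10 and 2.722e-06). By centring each library, 2 genes of the list were lower in place of 0, beside 4300 of 10555 genes. Without the SAP libraries numbered 26 to 29, 3 were higher and 1 lower, beside 3678 and 3682 of 10281 genes.

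Among 10 genes of collagen breakdown and its inhibitors, 6 were tested, with 5 higher (Mmp2, Mmp13, Mmp14, Timp1 and Timp3) and 1 not called in SAP against Con, where 44.2% of all genes tested were higher, at a median log2 change of 1.25 against 0.21 over all genes. Timp1, an inhibitor of matrix proteinases, had medians of 0.505, 0.5 and 30.91 TPM (4.24, SE 0.27, limma adjusted p = 5.389e-13). Timp3, which binds to matrix, had medians of 0.175, 0.335 and 3.68 TPM (1.93, adjusted p = 2.736e-09). Mmp2, which cleaves denatured and type IV collagen, had medians of 0.685, 0.58 and 2.14 TPM (0.98, adjusted p = 7.462e-06). Timp3 and Mmp2 entered the test only through their SAP libraries, which favours higher genes in the count and median of this list. Without the SAP libraries numbered 26 to 29, 3 of the list were higher, beside 3678 of 10281 genes. None of the receptor, basement membrane, growth factor, breakdown or inhibitor genes tested was called in AP against Con by limma. There, 4.35% of all genes tested were higher and 1.13% lower.

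**Figure D4:**
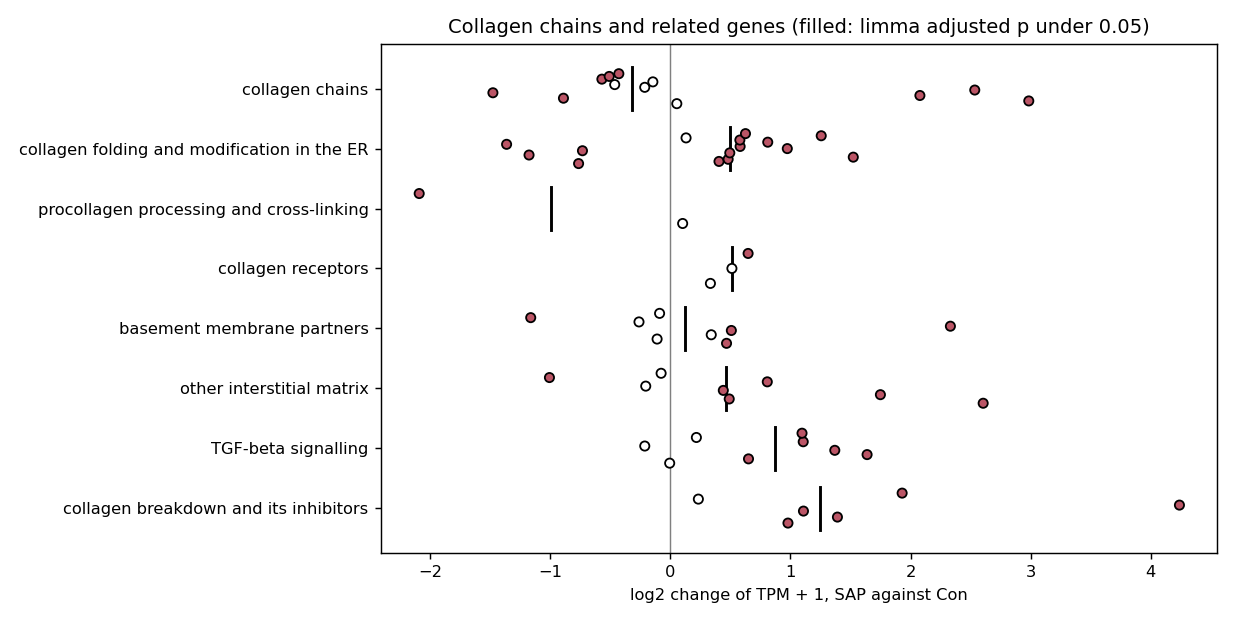
Log2 change of TPM + 1 in SAP against Con (horizontal axis) for each tested gene of the collagen chains and of 7 lists of related genes (vertical axis); filled points passed an adjusted p of 0.05 by limma and the upright bar is the median. The medians are -0.32 for the chains, 0.87 for growth factor signalling and 1.25 for breakdown genes and their inhibitors. The point farthest right is the inhibitor Timp1 at 4.24.

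Markers of the cells that make collagen, and of others that the tissue could hold, were read in the same fit. No marker tested was called in AP against Con, where 4.35% of all genes tested were higher and 1.13% lower. In SAP against Con every count of markers below stands beside 44.2% and 29.8% of all genes tested that were higher and lower. Of the 2 markers with the smallest limma p per list, Lyve1, Ngp and Cfd passed the filter only through SAP. Of the same markers, Pth1r, Thy1, Clec3b and Tpm2 had SAP means under 1 TPM. The filter thus favours differences among these markers. The other markers counted below, Retnlg among them, were not checked for this, so the filter may shape the counts further. The 12 stellate cell markers summed to 23.2 to 38.0 TPM in Con, 9.52 to 33.1 in AP and 10.0 to 26.4 in SAP, and of 8 tested, 2 (Reln and Rgs5) were higher and 5 (Des, Cygb, Pth1r, Colec11 and Vipr1) lower in SAP against Con. The 9 markers of sinusoidal endothelium summed to 74.6 to 150.0, 56.7 to 114.0 and 26.3 to 86.5 TPM, and of 8 tested, 2 (Stab2 and Lyve1) were higher and 5 (Stab1, Clec4g, Fcgr2b, Gpr182 and Dnase1l3) lower. The 7 vascular endothelial markers summed to 10.8 to 19.3, 9.46 to 18.7 and 9.29 to 28.4 TPM, with Cdh5 higher, Cldn5 lower and 2 not called. Endothelial markers thus went both ways beside the higher type IV chains, and their part in that result was not tested.

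The 8 portal fibroblast markers summed to 5.05 to 15.4, 5.12 to 13.4 and 3.75 to 13.7 TPM in Con, AP and SAP, with Entpd2 higher, Thy1 and Clec3b lower and 1 not called. The 7 markers of myofibroblasts and smooth muscle summed to 2.0 to 49.6, 3.06 to 49.5 and 2.11 to 22.6 TPM, with Tpm2 lower and 3 not called. The call on Tpm2 was lost without Con 5, Con 6, Con 9 or any of SAP 22, 25, 26, 27 and 29. Mesothelial markers (4, none tested) summed to at most 2.92 TPM in any library and cholangiocyte markers (6, 1 tested and not called) to at most 13.1 TPM. The 4 adipocyte markers summed to at most 3.2 TPM in Con and AP and to between 0.0 and 89.9 TPM in SAP, the highest being SAP 28, with 1 tested and not called.

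The 9 neutrophil markers summed to 2.47 to 27.7, 2.85 to 7.31 and 127.0 to 358.0 TPM in Con, AP and SAP, and all 4 tested (S100a8, S100a9, Retnlg and Ngp) were higher in SAP. Ngp passed the filter only through SAP, which favours higher genes in this count. The 4 platelet markers summed to 3.16 to 4.75, 3.28 to 5.9 and 13.1 to 31.7 TPM, with Pf4 higher and Itga2b lower. Of the 6 Kupffer cell markers, which summed to 54.4 to 210.0, 39.0 to 123.0 and 42.9 to 85.7 TPM, Marco was higher and Clec4f, Vsig4, Cd5l and Timd4 were lower. The 7 exocrine pancreas markers summed to 17.1 to 41.6, 16.4 to 26.3 and 8.02 to 14.8 TPM, with Cela1, the 1 gene tested, lower. Cela1 alone was at 17.1 to 41.14, 16.4 to 25.91 and 7.89 to 14.72 TPM, so the sum describes almost only that gene. Of the 9 hepatocyte markers, 2 (Tat and Hnf4a) were higher and 4 (Ttr, Apob, Serpina1c and Cps1) lower. No marker was at 0 in every library, and the part of these cells in the collagen results was not tested.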

How the data were processed

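RNA of 24 mouse liver libraries was sequenced, and the authors deposited 1 table of TPM per gene and library; the unit was read from the values, which sum to just under 1000000 in each library. The submitters' processing notes name edgeR, without a version. Aligner, build, annotation and strand setting: not given in the sources used here. Columns were matched to samples by title, and 0 columns stayed unmatched.

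TPM was taken as log2(TPM + 1) for genes whose mean over the 24 libraries reached 1 TPM (10555 tested, 44981 left out). The 3 comparisons were fitted together with limma 3.58.1 (R 4.3.3, trend, 21 residual degrees of freedom) and Benjamini-Hochberg adjustment over all genes tested. The fit was tested on simulated data. In all, 37 alternatives were run per comparison: other scalings, pseudocounts (0.1 and 0.01), filters and tests (exact permutation over 12870 arrangements, smallest p 0.000155), each library left out, and each numbered set of SAP libraries left out. The members and the lists of genes were chosen with earlier results of these data known. A gene of 1 pathway list is not reported here. The text names each of the 12 tested chains, the 5 highest of the other chains, and, from each list, the genes with the smallest limma p over the 3 groups (3 per pathway list, 2 per marker list); other names stand for counts of 5 or fewer, for class members or for genes called, and were chosen after their values were seen.

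Tested chains shared at most 1.11% of their 32-base windows with other genes of GENCODE M21.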

Additional observations from a re-analysis of the deposited data

Results flagged for a closer look

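Of 174 groups of 8 libraries examined on log2(TPM + 1) for a library far from the rest by Dixon's test, 22 had 1. Chance marks about 1 in 20 groups if values are normally distributed and groups independent. These groups are genes of the same libraries, so they are not independent. Among the collagen chains, SAP 28 was above the other 7 SAP libraries for Col1a2 (5.15 TPM against 1.14 to 2.5), Col1a1 (2.71 against 0.35 to 1.01), Col6a1 (1.7 against 0.45 to 0.81) and Col6a2 (1.04 against 0.21 to 0.39). AP 19 was above the other AP libraries for Col15a1 (5.05 against 2.48 to 3.51).

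Among related genes, AP 13 was below the other AP libraries for Pcolce (3.43 TPM against 7.01 to 10.99) and for Ecm1 (42.24 against 80.74 to 136.1), and SAP 21 below the other SAP libraries for Pcolce (1.18 against 1.85 to 2.62). AP 18 was low for Agrn (3.14 against 9.66 to 11.96). Con 6 was high for Timp3 (0.84 against 0.11 to 0.22). SAP 28 was high for Mmp2 (5.76 against 1.47 to 2.83).

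Among cell markers, SAP 28 was high for Tpm2 (2.6 TPM against 0.32 to 0.95), Myl9 (4.05 against 0.38 to 1.09), Cldn5 (4.93 against 0.32 to 1.2) and Cfd (74.8 against 0 to 2.41). Con 6 was high for Tpm2 (13.28 against 0.71 to 2.68), Con 3 for Marco (22.24 against 0.2 to 1.81), Con 9 for Ngp (0.18 against 0 to 0.08) and AP 11 for Cfd (2.84 against 0 to 0.46). Dnase1l3 was low in AP 13 (12.6 against 20.46 to 29.53) and high in SAP 22 (9.27 against 5.11 to 6.44), and Cldn5 was low in Con 8 (2.78 against 4.62 to 6.87).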

How the results depend on the processing

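Col4a1, Col4a2, Col13a1 and Col27a1 kept their direction and their call in both SAP comparisons under all 37 alternatives, with log2 changes against Con of 2.71 to 3.23, 1.63 to 2.55, 2.14 to 4.12 and -2.44 to -1.37. The count of chains lower in SAP than in Con, 5 as reported, was 8 after centring each library on its median, 8 (of 17 chains tested) after rescaling without the 50 most abundant genes and 2 without SAP 21, 22, 24 and 25. Over all genes, 3147 of 10555 were lower as reported, and 4300 of 10555, 3713 of 12559 and 2580 of 10515 under these settings. Against AP, 4 chains lower became 7, 7 and 2 under the same settings, beside 3275 of all genes that became 4278, 3361 and 2627. Centring added calls of Col1a2 in both SAP comparisons (-0.49 and -0.45), of Col14a1 against Con (-0.42) and of Col18a1 against AP (-0.37). Col15a1 was called against Con with quantile normalization (adjusted p = 0.004398) and Col16a1 was not with array weights (0.09192). With each library left out in turn, the chains higher were 3 to 3 in both SAP comparisons, those lower 4 to 6 against Con and 3 to 5 against AP, and those called in AP against Con 0 to 0. No value past the threshold had a sign other than that of the reported change. Among changes not called as reported, that of Col15a1 against Con was 0.08 without SAP 21, 22, 24 and 25. Those of Col1a2, Col14a1 and Col18a1 against Con also took both signs (-0.49 to 0.04, -0.42 to 0.04 and -0.22 to 0.27 over the alternatives). The same 3 chains took both signs against AP, as did several chains in AP against Con. Over all genes, AP against Con called 578, and 1006 with centring, 222 without a filter, 1458 with array weights, 335 by exact permutation and 877 without SAP 26 to 29. With 1 library left out it called 179 to 840, with at most 352 when the library left out was numbered 1, 7 or 10 in Con, or 15, 17, 18 or 19 in AP. SAP against Con then called 7640 to 7837 and SAP against AP 7406 to 7633. The share of calls that were higher was 79.4% for AP against Con, 59.4% with quantile normalization and 47.4% after rescaling; for SAP against Con it was 59.7%, 47.5% with centring, and 66.5% without SAP 21 to 25, while without SAP 26 to 29 it called 3678 higher and 3682 lower; for SAP against AP it was 56.9% and 46.4% with centring. The causes were not tested. No paired analysis was possible because the groups share no replicate numbers. TPM gives no read depth, so chains under 1 TPM cannot be given a counting error.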
